A study of Mus musculus with 12 samples.

Results

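UDP-glucuronosyltransferases (UGTs) and glutathione S-transferases (GSTs) are the conjugating enzymes described here, as mRNA levels in mouse liver under changed oxygen and dexamethasone (DEX). Members were the genes whose symbols name a Ugt1a, Ugt2a, Ugt2b or Ugt3a enzyme or a cytosolic or kappa GST and that had at least 10 counts in 3 or more of the 12 libraries. Of the 54838 gene identifiers in the table, 43 symbols matched and 36 met the minimum, 17 UGT and 19 GST genes. The 7 below it were Gsta1, Gsto2, Gstt4, Ugt1a2, Ugt1a8, Ugt2a1 and Ugt2a2. The members comprised 7 Ugt1a, 1 Ugt2a, 7 Ugt2b, 2 Ugt3a, 3 Gsta, 7 Gstm, 3 Gstp and 3 Gstt genes with 1 each of Gstk, Gsto and Gstz. All but Gstp2 also passed the filter on low counts, so 35 were tested, among 13861 genes.

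UGTs sit in the membrane of the endoplasmic reticulum and transfer glucuronic acid from UDP-glucuronate to bilirubin, steroids, bile acids and drugs. GSTs join glutathione to electrophiles such as epoxides and lipid aldehydes, and the liver is a major site of both reactions. The products are water-soluble and leave the hepatocyte through export pumps into bile or blood. Ugt1a genes are read from alternative first exons joined to shared last exons, whereas Ugt2b and mu-class Gstm genes are separate genes in tandem clusters.

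Liver RNA came from C57BL/6J mice that breathed 21% O2 (normoxia) or 7% O2 (hypoxia) for 24 h and were then injected intraperitoneally with PBS or DEX (10 mg/kg), a synthetic ligand of the glucocorticoid receptor. All mice were sampled 2 h after the injection, and the hypoxia mice went back to 7% O2 in between. The 4 groups, Normoxia_PBS, Normoxia_DEX, Hypoxia_PBS and Hypoxia_DEX, each held 3 libraries that the submitters call biological replicates, and age and sex are not given in the labels. The protocol names both oxygen arms hypoxia, taken here as a slip, since normoxia stands in the sample titles.

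Total counts ranged from 12464687 to 24715995 per library. Values are CPM, counts scaled to library size, as mean ± SD with n = 3 libraries, and folds are log2 fold changes with their SE. Genes were tested with the quasi-likelihood F test of edgeR, adjusted by Benjamini-Hochberg over all genes tested, and called at an adjusted p under 0.05. The libraries Hypoxia_DEX-1 and Hypoxia_DEX-3 were unusually alike: their counts differed by a chi-square of 1.79 per gene, whereas other pairs of replicates differed by 10.54 to 38.45. Hypoxia_DEX-2 and Hypoxia_PBS-1 stood apart from their groups on the second principal component. Calls lost without these libraries, or with the alike pair summed, are named beside the result. The 7 hepatocyte markers measured summed to 123129 CPM or more in every library. Alb, at 94442 to 116540 CPM by group mean, made up most of this sum. In bulk tissue, fewer cells of a type and less RNA per cell cannot be told apart.

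Compared per kb of exon that no other gene on the same strand covers, Gstm1 had the highest level of the members. It encodes a mu-class enzyme and stood at 652 CPM per kb as a mean over the 12 libraries. Ugt1a1, whose enzyme conjugates bilirubin, followed at 286 CPM per kb. Gsta3, an alpha-class enzyme that detoxifies aflatoxin epoxide in mice, was at 227 CPM per kb and Ugt2b36 at 213 CPM per kb. Ugt3a2 stood at 165 CPM per kb and Gstt1, a theta-class gene, at 127 CPM per kb. In Normoxia_PBS Gstm1 was at 668 ± 60.4 CPM per kb, above Ugt1a1 at 286 ± 7.96 and Gsta3 at 253 ± 34.9 CPM per kb. Gsta3 lay within its spread of its neighbours in this order, Ugt1a1 and Ugt2b36 (220 ± 25.5 CPM per kb), whereas Ugt1a1 and Ugt2b36 differed by more than their SDs. The level of Ugt1a1 depends on the bases counted as its own: it would be 679 CPM per kb if bases covered on either strand were left out. It would be lower if reads in shared exons were counted for it, over its 2224 exonic bases instead of 913. Its place in this order is therefore not secure. All 36 members together took 6060 to 7003 CPM in Normoxia_PBS, 7062 to 7609 CPM in Normoxia_DEX, 5274 to 6077 CPM in Hypoxia_PBS and 5474 to 6077 CPM in Hypoxia_DEX. The normoxia libraries with DEX were all above those with PBS, and the highest library of each hypoxia group, at 6077 CPM, lay just above the lowest Normoxia_PBS library.

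Hypoxia in PBS mice lowered many of these mRNAs. In hypoxia 13 of the 35 tested members were lower and 4 were higher, against 16.8% lower and 18.9% higher among all genes tested. The members called lower were 37.1% of those tested and those called higher 11.4%. The median log2 fold change of the members was -0.18, beside 0.007 over all genes. Of the GST genes 9 fell and 2 rose of 18 tested, and of the UGT genes 4 fell and 2 rose of 17. The losses lay in the mu class (5 of 7 Gstm genes), the pi class (2 of 2 tested) and Ugt2b (4 of 7), with Gsta4 and Gstt1, while none of the 7 Ugt1a genes was called lower.

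**Figure D1:**
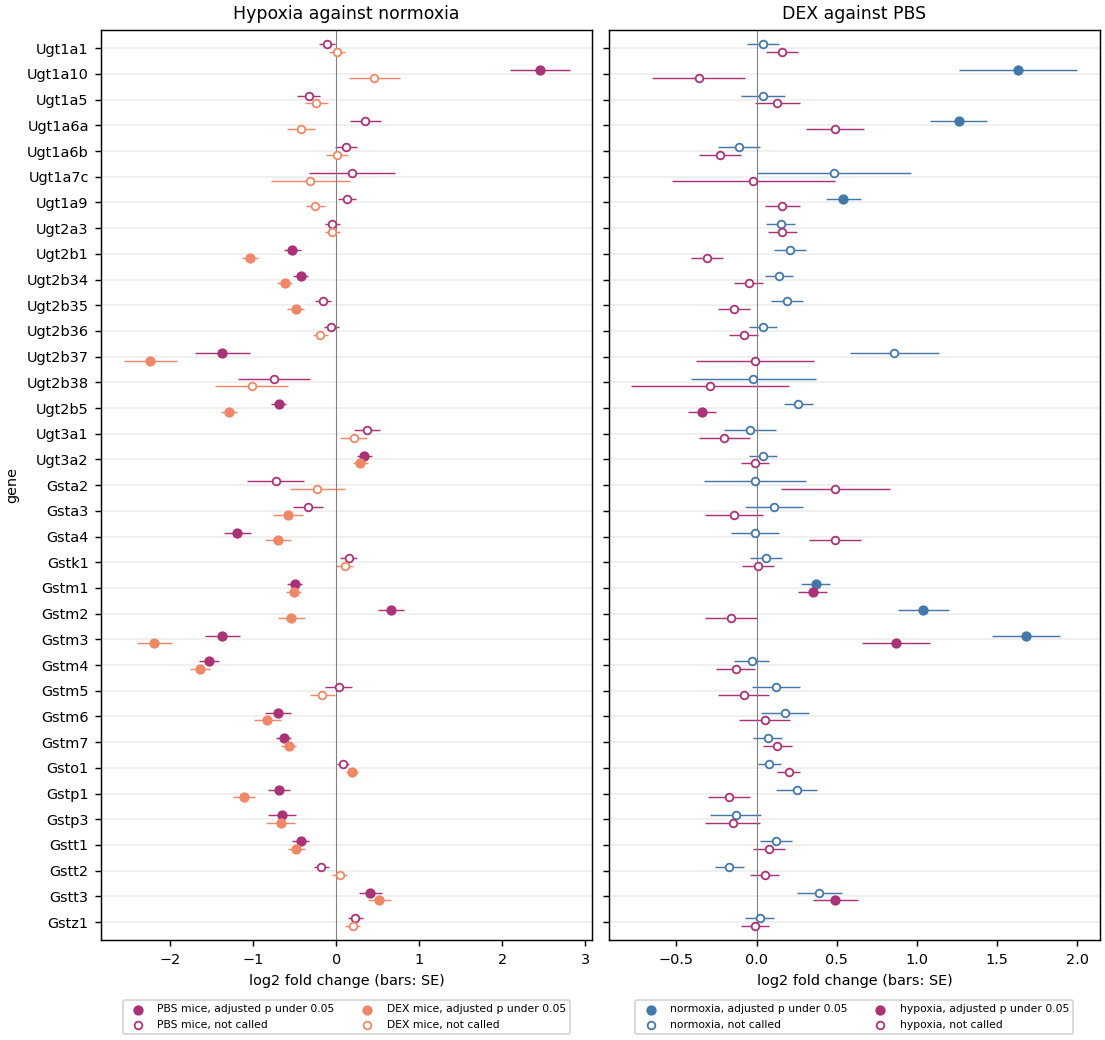
Log2 fold changes of the 35 tested members, with bars for the SE, for hypoxia against normoxia (left, in PBS and in DEX mice) and DEX against PBS (right, in normoxia and in hypoxia). Filled points passed an adjusted p of 0.05. Most called Gstm and Ugt2b genes lie left of 0 in the left panel, and Gstm3, Ugt1a10, Ugt1a6a and Gstm2 lie furthest right for DEX in normoxia.

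The mu-class genes form a cluster of 149.1 kb on chromosome 3 (mm10) and did not move alike. Gstm4 (ENSMUSG00000027890, chromosome 3, 108040408 to 108044894) stood at 49.5, 64.8 and 59.1 CPM in Normoxia_PBS and at 23.7, 18.8 and 17.3 CPM in Hypoxia_PBS. Every hypoxia library was below every normoxia library, and the means differed 2.9-fold (log2 fold change -1.53 with SE 0.12, adjusted p = 1.83e-06 by edgeR). Gstm3 (ENSMUSG00000004038, chromosome 3, 107963696 to 107969283) was at 39.1, 59.1 and 59.9 CPM in normoxia and at 19.8, 26.3 and 15.1 CPM in hypoxia. These groups did not overlap either (log2 fold change -1.37 with SE 0.21, adjusted p = 0.000707 by edgeR). Gstm6 fell from 72.8, 83.0 and 97.0 CPM to 57.9, 53.9 and 44.2 CPM (log2 fold change -0.70 with SE 0.16, adjusted p = 0.00471 by edgeR). Gstm7 fell by 0.63 and Gstm1 by 0.50 on the log2 scale, with adjusted p of 0.000146 and 0.00112 in edgeR's test. Gstm5, at 7.24 ± 0.967 and 7.39 ± 1.44 CPM, was not called. Gstm2 (ENSMUSG00000040562, chromosome 3, 107981702 to 107986453), which lies between Gstm3 and Gstm1, went the other way. Its 53.8, 63.5 and 70.4 CPM in Normoxia_PBS compare with 110, 106 and 81.3 CPM in Hypoxia_PBS, where all 3 libraries were higher (log2 fold change 0.66 with SE 0.16, adjusted p = 0.00834 by edgeR). That call was lost when Hypoxia_DEX-2 and Hypoxia_PBS-1 were left out together (adjusted p = 0.0578 by edgeR), with the direction unchanged.

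The stretches upstream of Gstm2, Gstm3 and Gstm4 are shown because these neighbours answered hypoxia and DEX differently. They are the 250 bases before the RefSeq start on GRCm38.p6, minus strand, written in the direction of transcription, at chr3:107986421-107986670, chr3:107969175-107969424 and chr3:108044860-108045109 in that order. None of the letters searched below was found in them, so no base is in capitals.
Gstm2: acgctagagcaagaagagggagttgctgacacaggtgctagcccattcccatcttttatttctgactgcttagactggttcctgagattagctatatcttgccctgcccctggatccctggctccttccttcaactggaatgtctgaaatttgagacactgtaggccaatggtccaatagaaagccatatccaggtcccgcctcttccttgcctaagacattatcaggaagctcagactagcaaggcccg
Gstm3: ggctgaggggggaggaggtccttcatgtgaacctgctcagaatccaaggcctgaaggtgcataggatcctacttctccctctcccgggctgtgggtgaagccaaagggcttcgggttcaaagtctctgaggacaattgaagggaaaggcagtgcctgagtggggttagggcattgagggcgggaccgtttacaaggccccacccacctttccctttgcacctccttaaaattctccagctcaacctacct
Gstm4: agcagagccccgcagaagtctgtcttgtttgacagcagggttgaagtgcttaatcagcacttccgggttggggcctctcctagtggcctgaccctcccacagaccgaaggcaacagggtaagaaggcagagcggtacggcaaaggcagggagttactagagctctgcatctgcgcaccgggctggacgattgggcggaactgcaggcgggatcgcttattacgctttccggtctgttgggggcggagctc

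**Figure D2:**
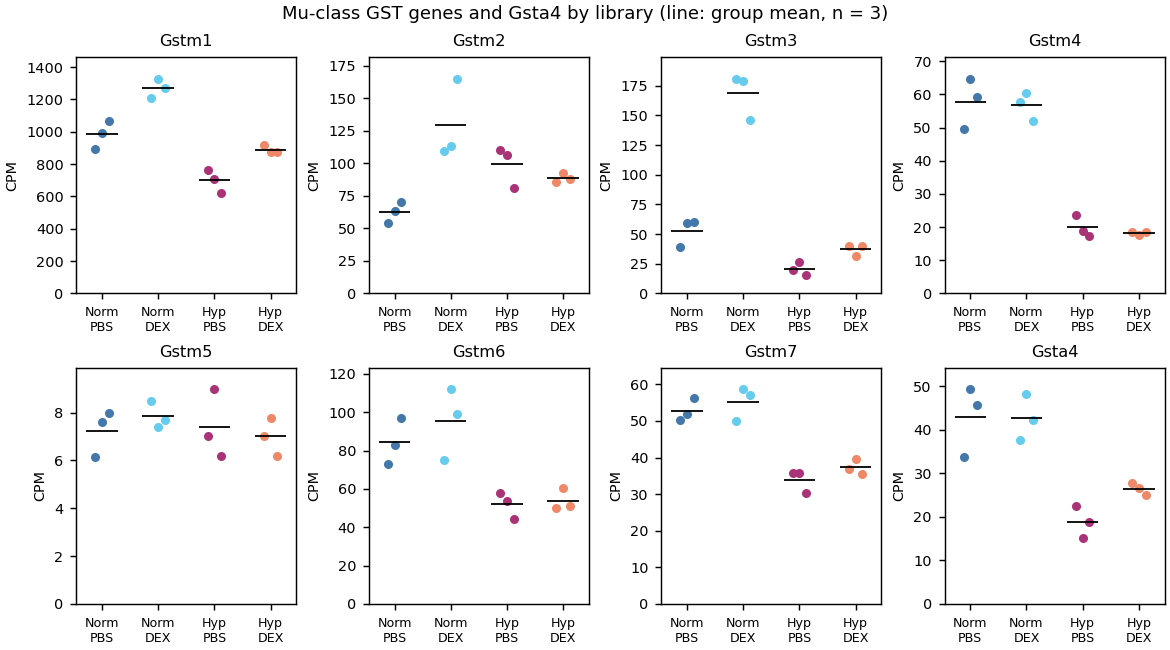
CPM of the 7 mu-class genes and Gsta4 in each of the 12 libraries, with a line at each group's mean (n = 3) and each axis starting at 0. Gstm4 was low in all 6 hypoxia libraries, from 17.3 to 23.7 CPM, Gstm3 was highest in Normoxia_DEX, and Gstm2 was lowest in Normoxia_PBS.

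Outside the mu class, Gsta4 (ENSMUSG00000032348, chromosome 9, 78182774 to 78209349), an alpha-class enzyme that conjugates the lipid aldehyde 4-hydroxynonenal, showed the largest fall among GST genes other than Gstm4 and Gstm3. It stood at 33.8, 49.3 and 45.7 CPM in normoxia and 22.4, 15.1 and 18.7 CPM in hypoxia. The groups were apart (log2 fold change -1.19 with SE 0.16, adjusted p = 0.000171 by edgeR). The pi-class genes Gstp1 and Gstp3 fell by 0.69 and 0.65 on the log2 scale (adjusted p = 0.00128 and 0.00802 by edgeR), and Gstt1 fell by 0.43 (adjusted p = 0.00543 by edgeR). Gstt3, also of the theta class, was the other GST gene that rose. Its 53.7, 65.0 and 80.2 CPM in normoxia nearly met its 96.4, 80.5 and 87.8 CPM in hypoxia (log2 fold change 0.41 with SE 0.14, adjusted p = 0.0377 by edgeR), and 11 of 19 alternative fits did not call it, among them those without Hypoxia_PBS-1, Hypoxia_PBS-3, Normoxia_PBS-1, Normoxia_PBS-2, Normoxia_DEX-3, Hypoxia_DEX-1 or Hypoxia_DEX-3. It was not called with Hypoxia_DEX-1 and Hypoxia_DEX-3 summed (adjusted p = 0.054 by edgeR) or with Hypoxia_DEX-2 and Hypoxia_PBS-1 both left out (adjusted p = 0.152 by edgeR, the highest of the 19). Gsta3, at 1099 ± 151 and 871 ± 236 CPM, was not called, and Hypoxia_PBS-2 at 1138 CPM lay inside the normoxia range. Gstz1, the maleylacetoacetate isomerase of tyrosine breakdown, had 554 ± 56.4 and 652 ± 46.9 CPM and missed the threshold narrowly (adjusted p = 0.0502 by edgeR). Gstk1, Gsto1, Gsta2 and Gstt2 were not called either.

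Among the UGT genes the falls were in the Ugt2b subfamily, whose enzymes conjugate steroids, bile acids and drugs. Ugt2b5 (ENSMUSG00000054630, chromosome 5, 87124960 to 87140318) stood at 374, 339 and 353 CPM in Normoxia_PBS and at 191, 234 and 237 CPM in Hypoxia_PBS. Every hypoxia library was lower (log2 fold change -0.69 with SE 0.09, adjusted p = 0.000131 by edgeR). Ugt2b1 (ENSMUSG00000035836, chromosome 5, 86916638 to 86926530) was at 319, 322 and 319 CPM in normoxia and 196, 251 and 218 CPM in hypoxia (log2 fold change -0.53 with SE 0.10, adjusted p = 0.00109 by edgeR). Ugt2b34 moved from 400, 438 and 458 CPM to 289, 356 and 315 CPM (log2 fold change -0.43 with SE 0.09, adjusted p = 0.00268 by edgeR). Neither of these pairs of groups overlapped. Ugt2b37 was a low-count gene at 7.24, 8.46 and 2.90 CPM in normoxia and 2.86, 2.56 and 1.81 CPM in hypoxia. Its groups were separated only by the gap between 2.90 and 2.86 CPM, although the test called it (log2 fold change -1.37 with SE 0.33, adjusted p = 0.00706 by edgeR). Ugt2b36, the most abundant of the subfamily per length, was at 452 ± 52.6 and 432 ± 26.3 CPM and was not called, nor were Ugt2b35 and Ugt2b38.

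Ugt3a2 (ENSMUSG00000049152, chromosome 15, 9335550 to 9370955), whose human counterpart uses other sugars than glucuronic acid, rose in hypoxia. It stood at 455, 412 and 476 CPM in normoxia and 569, 593 and 543 CPM in hypoxia, with no overlap (log2 fold change 0.34 with SE 0.09, adjusted p = 0.0104 by edgeR). Without Normoxia_PBS-2 it was no longer called (adjusted p = 0.0535 by edgeR). Ugt1a10, below the level at which genes were to be named and chosen after its values were seen, had the largest rise of all members. Its counts gave 0.579, 0.306 and 0.857 CPM in normoxia and 1.81, 4.02 and 3.63 CPM in hypoxia (log2 fold change 2.45 with SE 0.36, adjusted p = 0.000216 by edgeR). The number of members called higher dropped from 4 to 2 without Normoxia_PBS-2, and also to 2 with Hypoxia_DEX-2 and Hypoxia_PBS-1 both left out.

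**Figure D3:**
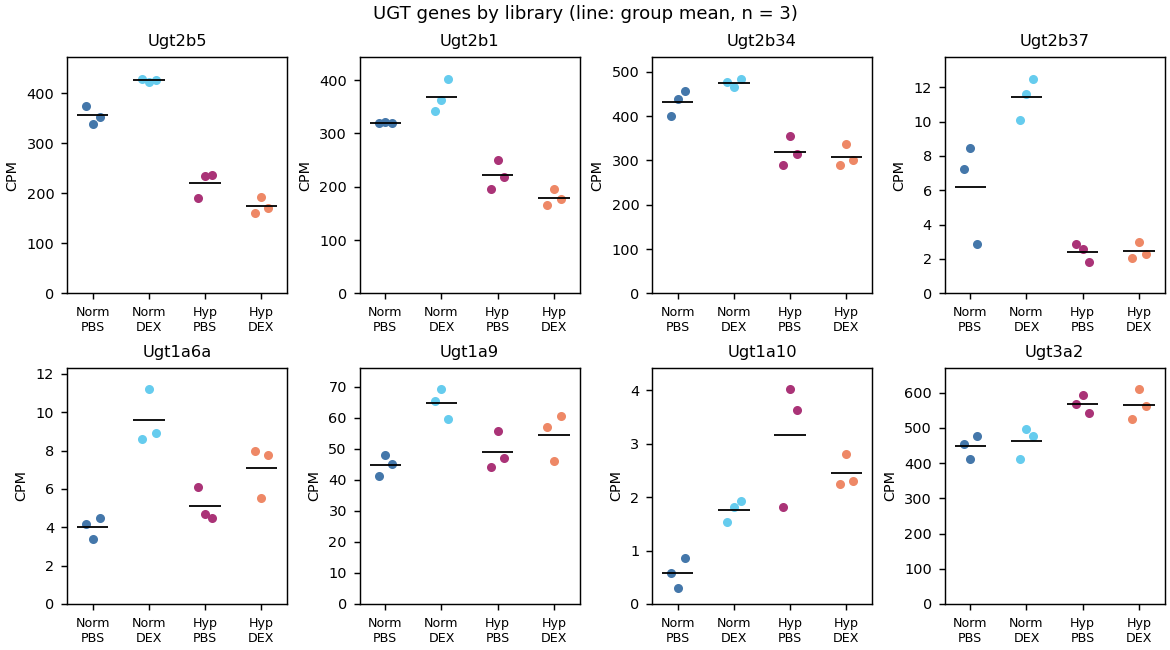
CPM of 8 UGT genes in each of the 12 libraries, with a line at each group's mean (n = 3) and each axis starting at 0. Ugt2b5, Ugt2b1 and Ugt2b34 were lower in every hypoxia library than in every normoxia library, Ugt3a2 was higher in every hypoxia library, and Ugt1a6a and Ugt1a9 were highest in Normoxia_DEX by group mean.

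Markers of hepatocytes and other cells moved with hypoxia. Of the 7 hepatocyte markers Fgb and Serpina1c were lower and 0 were higher. Their sums overlapped, at 129586 to 149408 CPM in Hypoxia_PBS and 123129 to 132288 CPM in Normoxia_PBS. All 10 Kupffer cell markers were lower in Hypoxia_PBS, where their summed level was 186 to 233 CPM against 473 to 622 CPM in Normoxia_PBS. Endothelial markers summed to 360 to 376 CPM against 417 to 451 CPM, with 4 of 9 lower and 1 higher. Of 10 periportal hepatocyte markers 6 were lower and 2 higher (10481 to 13408 CPM summed, against 13296 to 17133 CPM), and of 10 pericentral markers 3 were lower and 1 higher (9747 to 10487 CPM against 8978 to 10525 CPM). Stellate cell markers summed to 400 to 492 CPM against 420 to 551 CPM, with 4 of 9 lower and 1 higher. Of the cholangiocyte, neutrophil and lymphocyte markers 2 of 6, 0 of 6 and 3 of 8 were lower and none higher. None of these markers was at 0 in all libraries, and their part in the changes of UGT and GST genes was not tested.

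DEX in normoxia moved fewer members, and in 1 direction. In Normoxia_DEX 6 of 35 members were higher than in Normoxia_PBS and 0 were lower, against 9.38% higher and 7.4% lower among all genes. At an unadjusted p under 0.05 edgeR gave 9 higher and 0 lower, and DESeq2 called 8 higher and 0 lower. For these settings the shares of all genes were not counted, so the counts have no background beside them. The members' median log2 fold change was 0.12, beside 0.002 over all genes. The genes that rose were 3 of 7 mu-class genes, Gstm3, Gstm2 and Gstm1, and 3 of 7 Ugt1a genes, Ugt1a10, Ugt1a6a and Ugt1a9. No Ugt2b, Ugt3a, Gsta, Gstp or Gstt gene was called. Markers of hepatocytes and other cells moved with DEX too. The 7 hepatocyte markers summed to 147213 to 161036 CPM with DEX against 123129 to 132288 CPM with PBS, without overlap. This difference was mostly that of Alb, at 116540 ± 5738 CPM with DEX and 94442 ± 3776 CPM with PBS. Of the 7 markers 2, Alb and Apoa1, were called higher and 0 lower. Neutrophil markers summed to 11.8 to 19.7 CPM with DEX against 32.0 to 53.0 CPM with PBS, with 2 of 6 lower. Lymphocyte markers summed to 4.41 to 6.01 CPM against 7.19 to 10.2 CPM, with 2 of 8 lower. Of the 10 periportal markers Pck1 and Sds were higher, and of the 10 pericentral markers Glul was higher and Axin2 lower. Among 9 endothelial markers Lyve1 and Cdh5 were higher and Kdr lower, among 9 stellate markers Ecm1 was higher and Pdgfrb lower, the cholangiocyte marker Sox9 was lower, and 0 of 10 Kupffer cell markers were called. The part of these cells in the changes of UGT and GST genes was not tested.

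Gstm3 reached 181, 179 and 146 CPM with DEX, above all PBS libraries, 3.21-fold by the means (log2 fold change 1.68 with SE 0.21, adjusted p = 0.000232 by edgeR). Gstm2 stood at 109, 113 and 165 CPM, also above every PBS library (log2 fold change 1.04 with SE 0.16, adjusted p = 0.000856 by edgeR). Gstm1 rose less, to 1208, 1329 and 1268 CPM from 892, 993 and 1069 CPM (log2 fold change 0.37 with SE 0.09, adjusted p = 0.0137 by edgeR). That call was lost without Normoxia_DEX-2 (adjusted p = 0.0624 by edgeR) or Normoxia_PBS-1 (adjusted p = 0.0645 by edgeR). The 3 genes are adjacent in the cluster, with transcription starts 73.5, 90.6 and 122.2 kb from the low-coordinate end. Gstm4, the last of the cluster, had 57.8 ± 7.73 CPM with PBS and 56.7 ± 4.29 CPM with DEX.

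**Figure D4:**
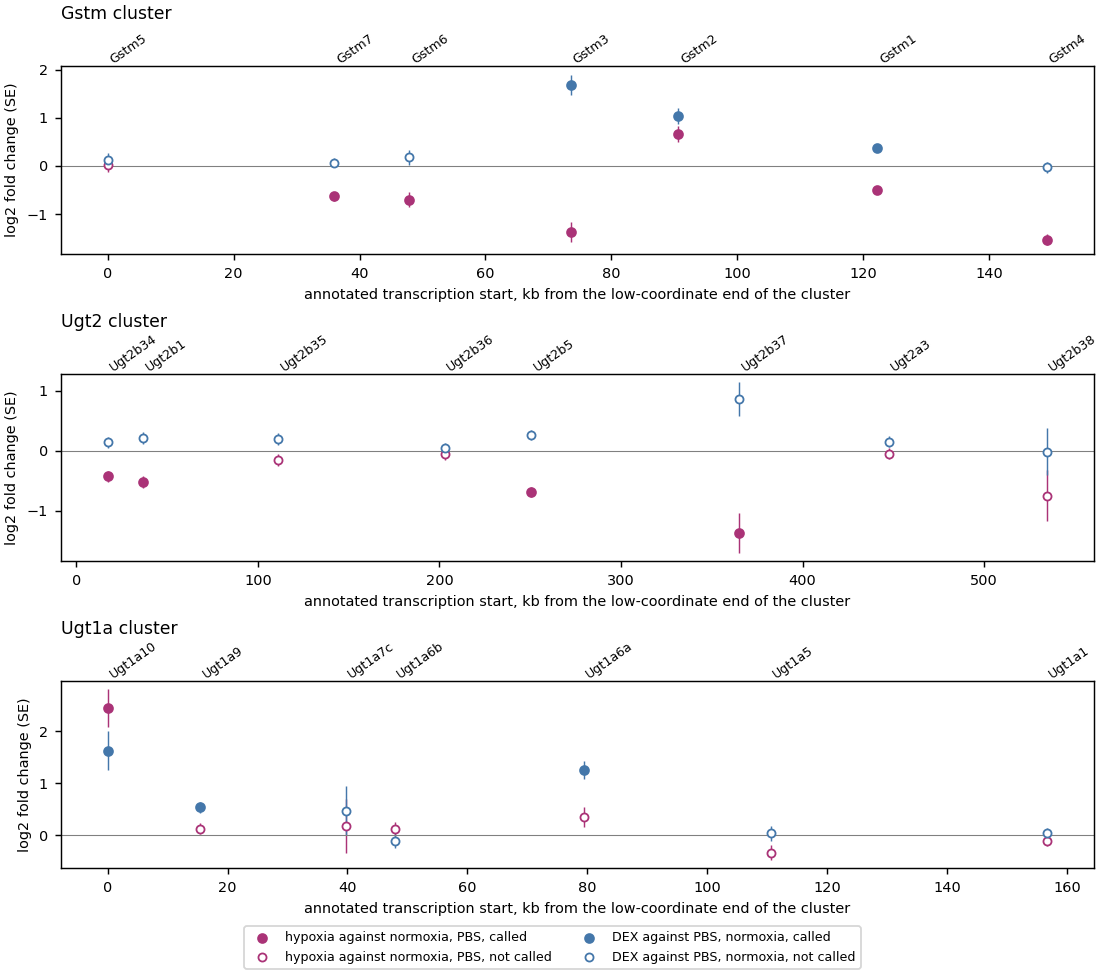
Log2 fold changes (bars, SE) of the genes in 3 tandem clusters against the position of each annotated transcription start, in kb from the low-coordinate end of the cluster, for hypoxia in PBS mice and for DEX in normoxia. Filled points passed an adjusted p of 0.05. In the Gstm cluster Gstm2 rose in both comparisons between Gstm3 and Gstm1, which fell in hypoxia and rose with DEX.

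Ugt1a6a (ENSMUSG00000054545, chromosome 1, 88134809 to 88218997), whose enzyme conjugates small planar phenols, was at 4.17, 3.41 and 4.48 CPM with PBS and at 8.62, 11.2 and 8.89 CPM with DEX. The groups were well apart (log2 fold change 1.26 with SE 0.18, adjusted p = 0.000251 by edgeR). Ugt1a9, another phenol-conjugating form, went from 41.3, 48.0 and 45.0 CPM to 65.5, 69.3 and 59.8 CPM, again without overlap (log2 fold change 0.54 with SE 0.11, adjusted p = 0.00409 by edgeR). Ugt1a10 stood at 1.53, 1.82 and 1.93 CPM with DEX (log2 fold change 1.63 with SE 0.37, adjusted p = 0.00806 by edgeR). Ugt1a1, the bilirubin-conjugating form, had 261 ± 7.27 and 270 ± 43.2 CPM (log2 fold change 0.04 with SE 0.10) and was not called. Ugt1a5, Ugt1a6b and Ugt1a7c were not called. Within the Ugt1a cluster of 164.6 kb on chromosome 1 the exons of each gene overlap those of 9 others when both strands are counted. These are the other Ugt1a genes and a gene outside the subfamily. Counted in this way, 17.3% to 49.7% of the exonic bases of each gene are its own. How the authors assigned reads in shared exons is not given in the sources used here, so the counts may rest on first exons or be split. The largest rises of Ugt2b genes with DEX, Ugt2b37 at 6.2 ± 2.92 and 11.4 ± 1.21 CPM and Ugt2b5 at 355 ± 17.9 and 426 ± 3.72 CPM, missed the threshold (adjusted p = 0.0597 and 0.0756 by edgeR).

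The stretches upstream of Ugt1a10, Ugt1a6a and Ugt2b5 are shown for 2 of the 3 Ugt1a genes that rose with DEX, those with the largest log2 fold changes, and for the Ugt2b gene whose DEX response differed with oxygen. They are the 250 bases before the RefSeq start on GRCm38.p6, at chr1:88055161-88055410 (plus strand), chr1:88134559-88134808 (plus strand) and chr5:87140341-87140590 (minus strand), and capitals mark the HNF1 core.
Ugt1a10: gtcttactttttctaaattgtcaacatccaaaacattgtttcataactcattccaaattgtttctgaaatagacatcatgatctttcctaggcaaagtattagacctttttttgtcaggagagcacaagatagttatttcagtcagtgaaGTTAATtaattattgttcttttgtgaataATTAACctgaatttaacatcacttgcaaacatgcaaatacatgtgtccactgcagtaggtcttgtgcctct
Ugt1a6a: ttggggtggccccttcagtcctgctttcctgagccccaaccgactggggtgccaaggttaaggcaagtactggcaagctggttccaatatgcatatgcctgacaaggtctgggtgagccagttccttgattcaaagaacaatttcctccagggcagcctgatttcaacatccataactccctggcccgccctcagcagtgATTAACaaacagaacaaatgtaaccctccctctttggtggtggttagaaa
Ugt2b5: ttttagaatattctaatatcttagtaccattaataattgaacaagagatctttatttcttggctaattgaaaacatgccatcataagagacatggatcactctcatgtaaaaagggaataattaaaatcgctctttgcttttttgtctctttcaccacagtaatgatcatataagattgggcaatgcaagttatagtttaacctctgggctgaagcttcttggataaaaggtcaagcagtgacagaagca

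Promoter windows of 250 bases were found for 32 of the 36 members, 39 windows in all, and 5 motifs were searched on both strands among 32851 windows. The HNF1 core GTTAAT, read by a liver-enriched factor, was in 7 of 39 member windows (17.9%) and in 6.43% of all windows. It was in 6 of 15 UGT windows (40%), those of Ugt1a1, Ugt1a10, Ugt1a6a, Ugt1a9, Ugt2a3 and Ugt3a1, and in 1 of 24 GST windows (4.17%), that of Gsta3. In Ugt1a10 it began 100 and 71 bases before the start, and in Ugt1a6a 50 bases before. The core of the antioxidant response element, TGACNNNGC, was in 3 member windows (7.69%) and 10.2% of all windows. The HIF core ACGTG was in 6 member windows (15.4%) and 16.6% of all windows. The Ah receptor core GCGTG was in 7 member windows (17.9%) and 28.2% of all windows, and differs from the HIF core in its first letter. A palindromic core of the glucocorticoid response element, ACANNNTGT, was in 1 member window (2.56%), that of Ugt1a7c, and 5.84% of all windows. These matches describe letters near the start only, with no test.

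DEX in hypoxia called 4 members. In Hypoxia_DEX 3 of 35 members were higher and 1 was lower than in Hypoxia_PBS, against 6.13% higher and 7.05% lower among all genes. The median log2 fold change was -0.01, beside -0.015 over all genes. Gstm3 stood at 39.7, 31.9 and 39.6 CPM, above its 15.1 to 26.3 CPM in Hypoxia_PBS (log2 fold change 0.87 with SE 0.21, adjusted p = 0.0230 by edgeR). Gstm1 was at 917, 872 and 874 CPM against 764, 710 and 622 CPM (log2 fold change 0.35 with SE 0.09, adjusted p = 0.0243 by edgeR). Gstt3 reached 126, 118 and 128 CPM, its highest levels in the study (log2 fold change 0.49 with SE 0.14, adjusted p = 0.0366 by edgeR). None of these 3 pairs of groups overlapped. Ugt2b5 was lower, at 160, 193 and 170 CPM, where Hypoxia_DEX-2 at 193 CPM lay above Hypoxia_PBS-1 at 191 CPM (log2 fold change -0.34 with SE 0.09, adjusted p = 0.0296 by edgeR). All 4 calls were lost when Hypoxia_DEX-1 and Hypoxia_DEX-3 were summed into 1 library, when either was left out, and without Hypoxia_PBS-3. With Hypoxia_DEX-2 and Hypoxia_PBS-1 both left out, 4 members were higher and 2 lower, and Gstm3 was not among them (adjusted p = 0.0609 by edgeR), nor was it without Hypoxia_PBS-1 alone (0.0592). Leaving out Hypoxia_PBS-1 alone gave 5 higher and 2 lower, and leaving out Hypoxia_DEX-2 alone gave 4 and 2. Leaving out Hypoxia_PBS-2 gave 3 and 0, and leaving out Normoxia_PBS-2 gave 2 and 1. Gstt3 was not called without Hypoxia_PBS-2 (adjusted p = 0.104 by edgeR) or without Normoxia_PBS-2 (adjusted p = 0.0542 by edgeR). The 3 called higher without Hypoxia_PBS-2 were therefore not the same 3 genes. Periportal markers were higher with DEX in hypoxia for 4 of 10 genes, at 14624 to 17118 CPM summed against 10481 to 13408 CPM. Neutrophil markers were lower for 2 of 6, at 21.1 to 48.2 CPM against 26.2 to 97.8 CPM. Among the other markers Fgb and Lyve1 were higher, Kdr and Sox9 were lower, and no Kupffer, stellate or lymphocyte marker was called. The part of these cells in the member results was not tested.

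The difference between the DEX responses at the 2 oxygen levels was tested directly as an interaction. It was negative, meaning a smaller rise or a larger fall with DEX in hypoxia, in 26 of the 35 members and positive in 9. The median was -0.13 beside -0.022 over all genes. How many of all genes had a negative value was not counted, so 26 of 35 cannot be read as particular to the members. By edgeR's test 2 members were called with a negative interaction and 0 with a positive one, against 0.996% and 0.325% of all genes. At an unadjusted p under 0.05 edgeR gave 9 negative and 1 positive, and DESeq2 called 4 negative and 0 positive. The shares of all genes under these settings were not counted, so these counts cannot be set against them. Gstm2 had 62.5 ± 8.35 and 129 ± 31.0 CPM with PBS and DEX in normoxia, and 98.9 ± 15.4 and 88.8 ± 3.51 CPM in hypoxia. DEX raised it in normoxia (log2 fold change 1.04), the value in hypoxia was -0.16 with SE 0.16, and the difference was -1.20 (SE 0.23, adjusted p = 0.0314 by edgeR). Ugt2b5 had 355 ± 17.9 and 426 ± 3.72 CPM in normoxia and 221 ± 25.6 and 174 ± 16.8 CPM in hypoxia, a difference of -0.60 (SE 0.13, adjusted p = 0.0435 by edgeR). Hypoxia alone had raised Gstm2 and lowered Ugt2b5.

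Neither interaction call was firm. Gstm2 was not called in 10 and Ugt2b5 in 12 of 18 alternative fits. The adjusted p rose to 0.103 and 0.146 by edgeR, both without Hypoxia_DEX-1. The number called was 0 with Hypoxia_DEX-1 and Hypoxia_DEX-3 summed. With Hypoxia_DEX-2 and Hypoxia_PBS-1 both left out 3 were called, Ugt2b5, Ugt1a10 and Ugt2b1, and Gstm2 was lost (adjusted p = 0.079 by edgeR). The number was 0 without Hypoxia_DEX-1, Hypoxia_DEX-3, Hypoxia_PBS-2, Normoxia_PBS-1 or Normoxia_PBS-2, 1 without Hypoxia_DEX-2, Hypoxia_PBS-3 or any Normoxia_DEX library, and 3 without Hypoxia_PBS-1, again Ugt2b5, Ugt1a10 and Ugt2b1 without Gstm2 (adjusted p = 0.0554 by edgeR). Other values did not pass and had both signs. The largest positive ones were 0.50 (SE 0.47) for Gsta2, 0.49 (SE 0.22) for Gsta4 and 0.22 (SE 0.12) for Gstt2. Their adjusted p by edgeR was 0.747, 0.397 and 0.511. The interaction was -1.99 (SE 0.48) for Ugt1a10 at an adjusted p of 0.0647 and -0.82 (SE 0.29) for Gstm3 at 0.270, both by edgeR. Ugt1a6a had -0.77 (SE 0.26, adjusted p = 0.198 by edgeR) and Ugt2b1 -0.51 (SE 0.14, adjusted p = 0.102 by edgeR). These 7 were chosen after their values were seen, and 5 of 18 alternative fits called Ugt1a10 and 4 called Ugt2b1.

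**Figure D5:**
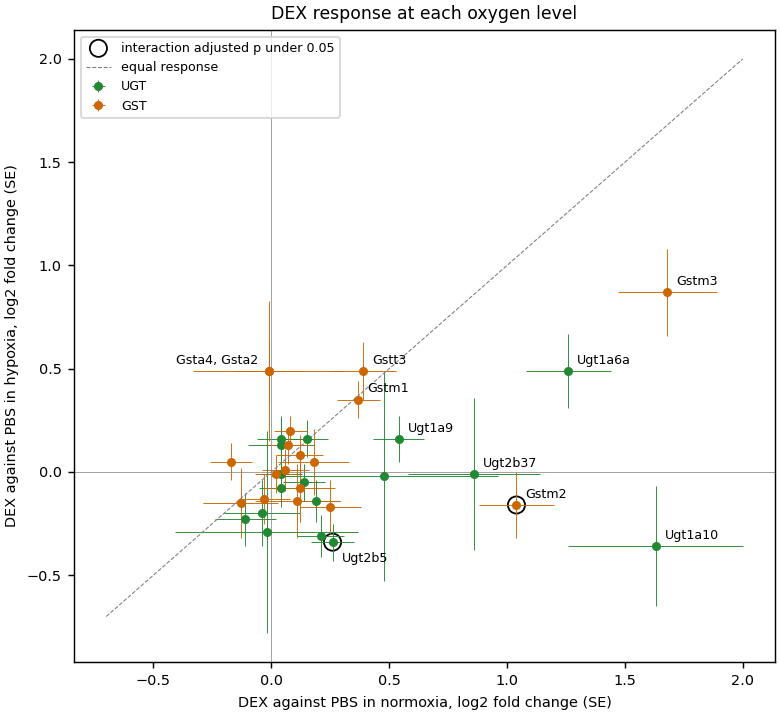
Log2 fold change with DEX in normoxia (horizontal) against that in hypoxia (vertical) for the 35 tested members, with SE bars, and a dashed line for equal responses. The 2 axes come from separate groups of mice. Gstm2 at 1.04 and -0.16 and Ugt2b5, ringed, passed the test of the difference. Gstm3, Ugt1a6a and Ugt1a10 lie below the line and Gsta2 and Gsta4 above it, without passing that test.

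In DEX mice hypoxia also lowered more members than it raised. Of 35 members 16 were lower and 3 higher in Hypoxia_DEX than in Normoxia_DEX, against 22.2% lower and 20.7% higher among all genes, and the median log2 fold change was -0.42 beside -0.021 over all genes. Lower were 6 of 7 Gstm, 5 of 7 Ugt2b, 2 of 3 Gsta and 2 of 2 tested Gstp genes, with Gstt1. Gstm3 was at 181, 179 and 146 CPM in Normoxia_DEX and at 39.7, 31.9 and 39.6 CPM in Hypoxia_DEX, 4.56-fold lower by the means (log2 fold change -2.19 with SE 0.21, adjusted p = 2.29e-05 by edgeR). Ugt2b37 stood at 10.1, 11.6 and 12.5 CPM and at 2.07, 2.97 and 2.31 CPM (log2 fold change -2.24 with SE 0.32, adjusted p = 0.000186 by edgeR). Ugt2b5 was at 429, 422 and 427 CPM against 160, 193 and 170 CPM (log2 fold change -1.29 with SE 0.10, adjusted p = 7.15e-07 by edgeR). In all 3 the groups were far apart. Ugt2b1 had 343, 362 and 403 CPM in normoxia and 165, 195 and 177 CPM in hypoxia (log2 fold change -1.04 with SE 0.10, adjusted p = 5.2e-06 by edgeR). Ugt2b34 had 478, 465 and 485 CPM against 289, 338 and 300 CPM (log2 fold change -0.62 with SE 0.09, adjusted p = 0.000148 by edgeR). Neither overlapped.

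Gstm4 in DEX mice stood at 57.8, 60.4 and 52.0 CPM in normoxia and at 18.6, 17.7 and 18.4 CPM in hypoxia, close to its values in PBS mice (log2 fold change -1.64 with SE 0.12, adjusted p = 6.77e-07 by edgeR). Gstp1 was at 57.1, 53.3 and 47.4 CPM against 25, 21.9 and 25.9 CPM (log2 fold change -1.11 with SE 0.13, adjusted p = 2.92e-05 by edgeR). Gstm6 had 75.2, 112 and 99.0 CPM against 50.2, 60.4 and 51.2 CPM (log2 fold change -0.83 with SE 0.16, adjusted p = 0.00120 by edgeR). In each the hypoxia libraries were all lower. Gsta4, at 42.7 ± 5.29 and 26.4 ± 1.38 CPM, fell by 0.70 on the log2 scale (adjusted p = 0.00349 by edgeR). Gsta3 fell by 0.58 from 1183 ± 29.9 to 791 ± 164 CPM (adjusted p = 0.0242 by edgeR) and was not called with the close pair of Hypoxia_DEX libraries summed (adjusted p = 0.0903) or without any 1 of Hypoxia_DEX-1, Hypoxia_DEX-3 and the Normoxia_DEX libraries. Gstm2 fell by 0.54 (adjusted p = 0.0189 by edgeR), the opposite of its direction in PBS mice, and was not called with that pair summed (adjusted p = 0.0635), without Hypoxia_DEX-1 (0.0697), without Hypoxia_DEX-3 (0.0615), without Normoxia_DEX-3 (0.0777) or with Hypoxia_DEX-2 and Hypoxia_PBS-1 both left out (0.056).

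The genes higher in Hypoxia_DEX were Gstt3, Ugt3a2 and Gsto1. Gstt3 was at 73.7, 102 and 84.1 CPM in Normoxia_DEX against 126, 118 and 128 CPM (log2 fold change 0.52 with SE 0.14, adjusted p = 0.0101 by edgeR). Ugt3a2 was at 412, 497 and 476 CPM against 524, 610 and 562 CPM (log2 fold change 0.29 with SE 0.09, adjusted p = 0.0204 by edgeR). Gsto1, an omega-class enzyme that reduces dehydroascorbate, was at 92.4, 94.3 and 99.8 CPM against 104, 117 and 107 CPM (log2 fold change 0.19 with SE 0.07, adjusted p = 0.0289 by edgeR). None of these groups overlapped, though the rise of Gsto1 was small. The count of 3 became 1 without Normoxia_DEX-1, where Ugt3a2 (adjusted p = 0.0954 by edgeR) and Gsto1 (adjusted p = 0.0974 by edgeR) were lost. Gsto1 was also lost without Hypoxia_DEX-2 (0.0661) or Normoxia_DEX-2 (0.0553), and with Hypoxia_DEX-2 and Hypoxia_PBS-1 both left out (0.0564). The PBS and DEX comparisons of hypoxia use separate groups of mice, and the comparisons of DEX and of hypoxia share groups with each other. Kupffer cell markers were again all lower, 10 of 10, with sums of 195 to 214 CPM in Hypoxia_DEX and 514 to 725 CPM in Normoxia_DEX. Of the stellate cell markers 6 of 9 were lower (479 to 492 CPM summed, against 554 to 593 CPM), and of the endothelial markers 3 of 9 (366 to 385 CPM against 425 to 474 CPM). Of the hepatocyte markers 3 of 7 were lower (136689 to 142103 CPM against 147213 to 161036 CPM) and of the pericentral markers 5 of 10, while 4 periportal markers were lower and 2 higher. The neutrophil marker Retnlg was higher, and no cholangiocyte or lymphocyte marker was called. The part of these cells in the changes of UGT and GST genes was not tested.

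In all 22 of the 35 tested members were called in at least 1 of the 5 comparisons. The share of all genes called in at least 1 comparison was not counted, so 22 of 35 cannot be read as particular to the members. The 13 called in none were Gsta2, Gstk1, Gstm5, Gstt2, Gstz1, Ugt1a1, Ugt1a5, Ugt1a6b, Ugt1a7c, Ugt2a3, Ugt2b36, Ugt2b38 and Ugt3a1. Gstp2, too low to test, ranged from 0 to 0.765 CPM. Near-identical copies limit some of these values: 54.3% of the 50-base stretches of Gstp2 and 33.7% of those of Gstp1 also occur in other genes, chiefly in each other. For Gsta2 the share was 49.8% and for Gstm3 28.8%. For Ugt2b5 it was 41.7%, for Ugt2b38 37.4% and for Ugt2b37 18.3%, so a part of the reads of these 3 may not be assignable to 1 gene.

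Genes that supply the sugar and the thiol were read beside the transferases. Counts in these lists stand against the shares of all genes called, 18.9% higher and 16.8% lower in hypoxia with PBS, 20.7% and 22.2% in hypoxia with DEX, 9.38% and 7.4% for DEX in normoxia and 6.13% and 7.05% for DEX in hypoxia. Of 7 genes listed for UDP-glucuronate supply, 2 rose and 1 fell in hypoxia with PBS (median 0.22). The list includes transporters, among them Slc35b1 and Slc35d2, whose cargo was not examined, so these counts do not measure the supply. Ugdh, which makes UDP-glucuronate, fell from 123 ± 20.4 to 84.1 ± 7.52 CPM (log2 fold change -0.55 with SE 0.14, adjusted p = 0.0103 by edgeR), while Pgm1, a phosphoglucomutase, and Slc35b1, a transporter of the endoplasmic reticulum, rose by 0.50 and 0.79 on the log2 scale (adjusted p = 0.000713 and 0.000221 by edgeR). DEX lowered Slc35d2, a nucleotide sugar transporter, in normoxia and in hypoxia, from 29.3 ± 1.80 to 12.7 ± 0.448 CPM and from 34.1 ± 3.76 to 17.6 ± 0.742 CPM, and no other gene of the 7 was called for DEX. Of 15 genes of glutathione synthesis and recycling, 2 rose and 4 fell in hypoxia with PBS (median 0.06). Glrx, a glutaredoxin, rose from 21.7 ± 2.37 to 74.9 ± 8.48 CPM (log2 fold change 1.79 with SE 0.09, adjusted p = 1.1e-07 by edgeR). Cbs, the first enzyme from homocysteine towards cysteine, fell from 593 ± 23.4 to 313 ± 39.3 CPM (log2 fold change -0.92 with SE 0.09, adjusted p = 9.39e-06 by edgeR), and Cth, the next enzyme, fell by 0.78 (adjusted p = 0.0479 by edgeR). In DEX mice 4 rose and 7 fell in hypoxia, and DEX gave 1 higher and 0 lower in normoxia and 1 higher and 1 lower in hypoxia.

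Of 7 tested transferases outside the member rule, 1 rose and 2 fell in hypoxia with PBS (median -0.08). Mgst1, a microsomal glutathione transferase, rose from 2046 ± 97.8 to 2968 ± 116 CPM (log2 fold change 0.54 with SE 0.08, adjusted p = 0.000316 by edgeR), and Mgst3 fell from 16.6 ± 3.38 to 9.80 ± 1.16 CPM (adjusted p = 0.00175 by edgeR). Of 18 genes of conjugate export and breakdown, 10 fell and 4 rose in hypoxia with PBS and 11 fell and 4 rose in hypoxia with DEX, with medians of -0.41 and -0.53. Abcb11, the bile salt export pump, fell from 944 ± 47.4 to 286 ± 75.0 CPM in PBS mice (log2 fold change -1.72 with SE 0.17, adjusted p = 2e-05 by edgeR). Abcc2, which exports glucuronides and glutathione conjugates into bile, rose with DEX from 692 ± 29.1 to 1027 ± 83.2 CPM in normoxia (adjusted p = 0.00025 by edgeR) and from 624 ± 27.6 to 938 ± 54.2 CPM in hypoxia (adjusted p = 0.000404 by edgeR).

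Among 24 regulators of these genes, 6 rose and 3 fell in hypoxia with PBS, near the shares of all genes, and 2 rose and 6 fell with DEX in normoxia. Nr1i3, which encodes the xenobiotic sensor CAR, rose from 211 ± 51.1 to 447 ± 107 CPM in hypoxia (log2 fold change 1.08 with SE 0.18, adjusted p = 0.000678 by edgeR), and Nr1h4, the bile acid receptor FXR, rose from 113 ± 7.80 to 215 ± 10.7 CPM (log2 fold change 0.92 with SE 0.07, adjusted p = 2.27e-06 by edgeR). Ahr, the aryl hydrocarbon receptor, rose with DEX from 76.3 ± 8.68 to 192 ± 12.6 CPM in normoxia (log2 fold change 1.33 with SE 0.12, adjusted p = 4.4e-06 by edgeR). In hypoxia Ahr stood at 94.3 ± 13.8 CPM with PBS and 90.4 ± 10.2 CPM with DEX, and it was the regulator called in the interaction (-1.39, SE 0.17, adjusted p = 0.00137 by edgeR). Nfe2l2, which encodes NRF2, fell with DEX from 65.3 ± 4.84 to 40.4 ± 4.89 CPM in normoxia (adjusted p = 0.00124 by edgeR) and from 96.4 ± 15.1 to 61.8 ± 5.99 CPM in hypoxia (adjusted p = 0.00325 by edgeR). Of 19 NRF2 targets outside the GST family, 6 rose and 3 fell in hypoxia with PBS (median 0.06), and 2 rose and 3 fell with DEX in normoxia (median 0.08). The links between these regulators and the UGT and GST genes were not tested.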

How the data were processed

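The authors' deposited values were raw counts of reads for each gene in 12 libraries, whole and not normalized, under 54838 identifiers, 54723 of them with a symbol. The submitters' processing notes list Trimmomatic, HISAT2 2.0.4, SAMtools, featureCounts, DESeq2 and the mm10 build without saying which step used what. Annotation, strand setting and the handling of reads shared between genes: not given in the sources used here. RNA was extracted on Bio-Rad Aurum columns and sequenced from TruSeq Stranded mRNA libraries, per the labels' protocols.

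The fit used R 4.3.3 and edgeR 4.0.16 (filterByExpr, TMM, robust glmQLFit, glmQLFTest), with a mean for each group across the 12 libraries and 8 residual degrees of freedom. Benjamini-Hochberg adjustment ran over all 13861 genes in each of 5 comparisons. The procedure was run on simulated counts with genes changed in Hypoxia_DEX only, the same spread for all genes and no alike pair of libraries. That run checked the code and cannot show how firm the calls in these data are. Depth was 12464687 to 24715995 counts per library, which limits the precision of genes of a few CPM. The members, lists and tests were chosen with earlier results of these data known. In each comparison values in every library were to be given for up to 4 called members per family and direction, with at least 5 CPM in 1 group, and for every member called in the interaction. The 3 members per family with the highest level per length were also named, and up to 3 called genes of each list of related genes. Other members are given more briefly, and a gene named beyond these limits was chosen after its values were seen. Positions and exons are from GENCODE M21 on mm10. Promoter sequences are from RefSeq on GRCm38.p6, and those printed were chosen after the values were seen. The fit was repeated with RLE size factors, in DESeq2 1.42.0, with every gene of at least 1 count kept, with a block for the replicate number, with only the compared groups, without each library, with Hypoxia_DEX-1 and Hypoxia_DEX-3 summed, and with Hypoxia_DEX-2 and Hypoxia_PBS-1 both left out. Figures were drawn with matplotlib 3.10.9.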

Additional observations from a re-analysis of the deposited data

Results flagged for a closer look

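The response to DEX differed between the oxygen levels, by the test of the difference itself, for 2 members. For Gstm2 the log2 response in hypoxia minus that in normoxia was -1.20 (SE 0.23, edgeR adjusted p = 0.0314), and it was negative in all 18 alternative fits, from -1.32 to -0.96. For Ugt2b5 the difference was -0.60 (SE 0.13, edgeR adjusted p = 0.0435), negative in all 18 alternative fits, from -0.73 to -0.51. Both calls were fragile: Gstm2 was not called in 10 of the 18 fits (adjusted p up to 0.103 by edgeR) and Ugt2b5 in 12 (up to 0.146). Nearly all of these losses came with libraries left out or summed. The exceptions were the fit without the low-count filter for Gstm2 and the replicate block for Ugt2b5. RLE size factors and DESeq2 kept both calls.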

How the results depend on the processing

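Of the 48 member results called, 34 were called under every alternative fit, 14 were lost under at least 1 and 0 reversed. RLE size factors moved the median of all genes by at most 0.0147 on the log2 scale. In hypoxia with PBS, the 4 higher became 2 with Hypoxia_DEX-2 and Hypoxia_PBS-1 both left out. For DEX in hypoxia, the 3 higher became 5 with DESeq2, 1 without the low-count filter and 0 with Hypoxia_DEX-1 and Hypoxia_DEX-3 summed. The 1 lower there became 2 with DESeq2, without the filter, with the replicate block and with Hypoxia_DEX-2 and Hypoxia_PBS-1 left out, and 0 with only the compared groups or the pair summed. The 2 negative interactions became 4 with DESeq2, 1 with the replicate block and 0 with the pair summed. The other counts stayed within 1.5 times. The cause of these shifts was not tested.

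Leaving out each library in turn gave 2 to 6 higher and 13 to 14 lower for hypoxia in PBS mice, 5 to 7 higher and 0 lower for DEX in normoxia, 0 to 5 higher and 0 to 2 lower for DEX in hypoxia, 0 positive and 0 to 3 negative interactions, and 1 to 4 higher and 14 to 19 lower for hypoxia in DEX mice. The labels do not say whether a replicate number marks paired samples. Over 18 pairs with the same number the correlation of deviations ranged from -0.151 to 0.39 and exceeded 0.1 in 4. Pairs with other numbers ranged from -0.424 to 0.303. With 3 libraries per group these values cannot decide whether the samples were paired. With the block Ugt2b5 was lost from the interaction (adjusted p = 0.0567 by edgeR). The fit of only the compared groups does not apply to the interaction. Low counts limit Ugt1a10, Ugt2b37, Ugt2b38, Ugt1a7c and Gstp2.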
